A study of Caenorhabditis elegans with 6 samples.

Results

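The nuclear hormone receptor genes named nhr were followed in whole Caenorhabditis elegans adults with and without knockdown of the gene T25B9.1. A gene was taken when its identifier in the deposited count table maps to a symbol starting with nhr-. This gave 269 rows, of which 268 were kept and 1 was set aside by the rule for choosing them, out of 46748 rows in all. All 268 are annotated as protein coding in build WBcel235. Both groups were hermaphrodites of the wild-type strain N2 aged 2 days, counted from the L4 larval stage in the title of the series. The control group carried L4440, the empty vector used in RNA interference (RNAi) by feeding, and the other group was treated with RNAi against T25B9.1, the worm counterpart of a mitochondrial enzyme of threonine breakdown. There were 3 libraries per group. The labels do not say that these were separate cultures, so p-values here measure library spread, and part of that spread may be technical.

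Nuclear hormone receptors are transcription factors that bind DNA through a zinc-finger domain and, in many members, bind a small lipid-like ligand through a second domain. The worm carries far more of them than insects or mammals do. Most of the additional genes descend from an ancestor related to the vertebrate receptor HNF4, while a small set has direct counterparts in flies and mammals. Known worm receptors control moulting, fat desaturation, propionate breakdown, responses to toxins and bacteria, and sterol balance.

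Libraries held 26125982 to 40726259 counts, and the nhr genes together took 0.131% to 0.151% of them. T25B9.1 itself stood at 5.99, 4.99 and 6.39 CPM (the count scaled by library size and composition) in the L4440 libraries and at 1.35, 1.71 and 1.76 CPM in the RNAi libraries, with no overlap (edgeR adjusted p = 0.0525). T25B9.1 RNAi replicate 1 stood apart on the first principal component, at 41.9 against -27.5 to 4.59 in the other 5 libraries. The 7 moulting genes listed here, none of them at 0, summed to 456 CPM in that library and to 161 to 231 CPM in the others. The 3 pharynx markers, also none at 0, summed to 169 CPM there and to 34.6 to 65.5 CPM elsewhere. The 3 yolk genes, at 51953 to 82529 CPM in sum, and the adult cuticle collagen gene col-19, at 83 to 113 CPM, were present in all 6 libraries, as were the 4 oocyte and germline markers, at 3541 to 3740 CPM. Less RNA per cell and fewer cells of a type cannot be told apart in RNA from whole worms.

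About as large a share of the nhr genes as of all protein-coding genes could be measured, but few nhr genes were abundant. At least 1 count was found for 254 of the 268 genes in some library and for 205 in every library. A mean of at least 1 CPM over the 6 libraries, the level used here for expressed, was reached by 144 genes (53.7%, against 56.2% of all protein-coding rows). At 5 CPM the share was 21.3% against 41.9%, and at 10 CPM it was 13.4% (36 genes) against 36.1%. The family was thus represented by many transcripts at low levels. By single library, 141, 143 and 144 nhr genes reached 1 CPM with L4440 and 144, 144 and 146 with RNAi. Of the 268, 142 reached it in both group means, 143 with L4440 and 145 with RNAi.

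The median level, divided by exonic length so that genes can be compared, was 0.866 CPM per kb for the 268 nhr genes and 1.61 CPM per kb for all protein-coding rows. A library with 0 counts of a gene allows up to 3 counts, which is 0.0737 to 0.115 CPM in these libraries and covers counting error only. The 14 genes with 0 counts in all 6 libraries were nhr-26, nhr-118, nhr-197, nhr-217, nhr-233, nhr-241, nhr-242, nhr-248, nhr-255, nhr-259, nhr-264, nhr-267, nhr-272 and nhr-288. They were not detectable at this depth.

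**Figure D1:**
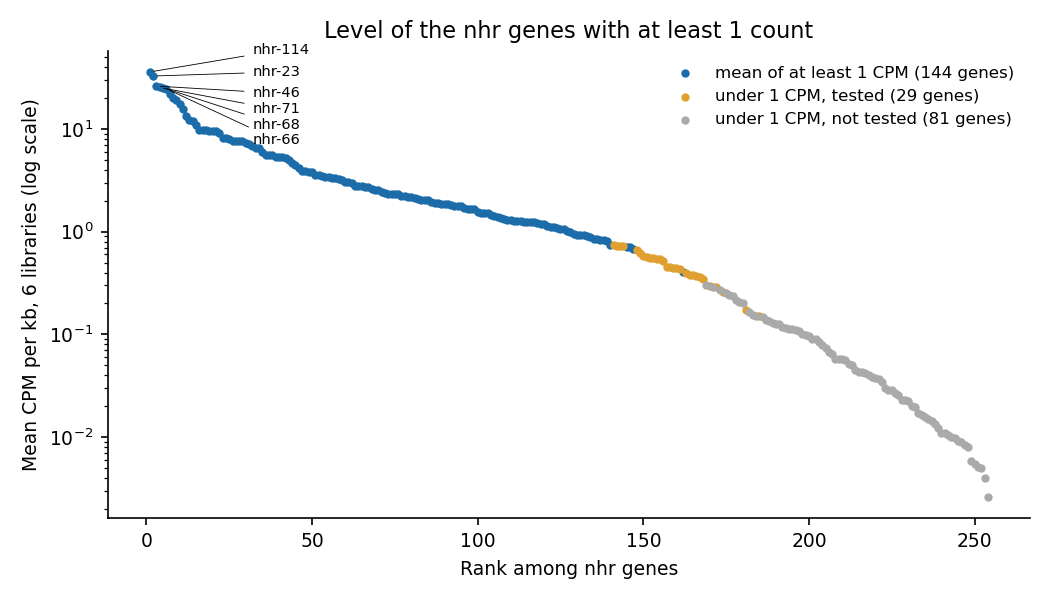
Mean level of each nhr gene with at least 1 count (CPM per kb of exon over the 6 libraries, log axis) against its rank among the 268, each point 1 gene. The 144 genes of at least 1 CPM fill the upper part of the curve, 29 tested genes lie under 1 CPM, and 81 further genes were too low to test.

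Chromosome V held 167 of the 268 nhr genes (62.3%), against 25.1% of all protein-coding rows. Of those on chromosome V, 85 (50.9%) were expressed, and of the 101 elsewhere, 59 (58.4%) were. Over all protein-coding rows the same shares were 40.3% on chromosome V and 61.5% elsewhere. Chromosome X had 16 of 23 nhr genes expressed and chromosome IV 24 of 33, while chromosome I had 6 of 22.

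**Figure D2:**
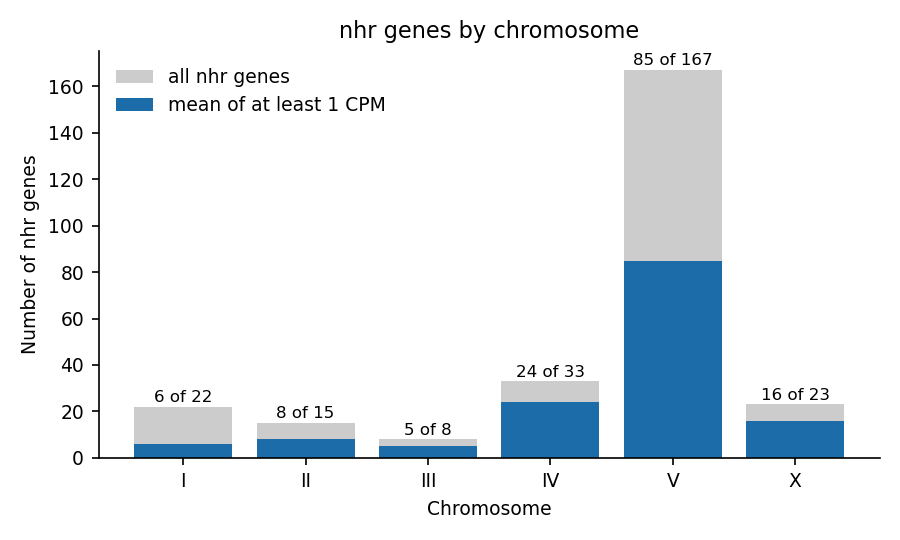
Number of nhr genes on each chromosome (grey bars) and number with a mean of at least 1 CPM over the 6 libraries (blue bars). Chromosome V carries 167 genes with 85 expressed, and chromosome I has the lowest share, 6 of 22.

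Many nhr genes sit side by side: 137 of the 268 lie in 44 runs of at least 2 nhr genes with no other protein-coding gene starting between them. Within runs 68 genes (49.6%) were expressed, and among the 131 standing alone 76 (58.0%) were. Whole runs differed from each other. The longest run, 9 genes from nhr-185 to nhr-124 at chrV:3844429-3886204, had 0 genes at 1 CPM and levels of 0.0256 to 0.151 CPM per kb. A run of 6 genes from nhr-51 to nhr-198 at chrV:15674007-15696217 also had 0, with levels up to 0.0736 CPM per kb. By contrast, all 7 genes of the run from nhr-56 to nhr-96 at chrV:2219004-2235180 were expressed, at 0.673 to 2.8 CPM per kb. The same was true of the 7 genes from nhr-161 to nhr-42 at chrV:6980587-7000651, at 0.912 to 6.0 CPM per kb. These runs were picked after their values were seen.

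The number in the symbol also went with level. Of the 93 genes numbered 1 to 99, 70 (75.3%) were expressed. The share was 58.9% of the 95 genes numbered from 100 to below 200 and 22.5% of the 80 genes with higher numbers.

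The most abundant nhr gene per kb was nhr-114, followed by nhr-23, nhr-46, nhr-71, nhr-68, nhr-66, nhr-86, nhr-2, nhr-20, nhr-10, nhr-274 and nhr-12. The gene nhr-114 (WBGene00003704, chrV:4187202-4190008, plus strand), whose product activates methionine cycle genes when that cycle runs low, stood at 35.8 ± 7.47 CPM per kb (SD, n = 6). That level lay above 80.6% of all protein-coding rows. The gene nhr-23 (WBGene00003622, chrI:7214745-7221299, plus strand), the worm counterpart of the ROR receptors and a driver of moulting, stood at 32.7 ± 2.63 CPM per kb. The order of these genes was close. In the list from nhr-114 down to nhr-274 the ranges over the 6 libraries of every neighbouring pair overlapped, and nhr-274 and nhr-12 were the first neighbours that did not. Compared within each library, nhr-23 lay above nhr-46, and nhr-66 above nhr-86, in all 6. In the other overlapping pairs of that list the upper gene lay above the lower in 3 to 5 libraries.

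Abundant genes included receptors of diet and defence. Levels were 25.2 ± 2.16 CPM per kb for nhr-68 (WBGene00003658, chrV:11573440-11575709, plus strand), which acts with nhr-10 to switch on the propionate shunt. The receptor gene nhr-86 (WBGene00003676, chrV:2061106-2066850, minus strand), whose product senses a bacterial toxin and activates defence genes in the intestine, stood at 21.8 ± 1.87 CPM per kb. The genes nhr-46 at 26.1 ± 1.99, nhr-71 at 25.3 ± 0.48 and nhr-66 at 24.6 ± 0.592 CPM per kb lay between nhr-23 and nhr-86. Without division by length nhr-66, which has 4831 exonic bases, came first at 116 to 123 CPM, and 10 of the 12 genes were shared between both orders. The 10 highest genes by CPM took 40.3% of all nhr counts on that scale, and the 20 highest 56.5%.

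**Figure D3:**
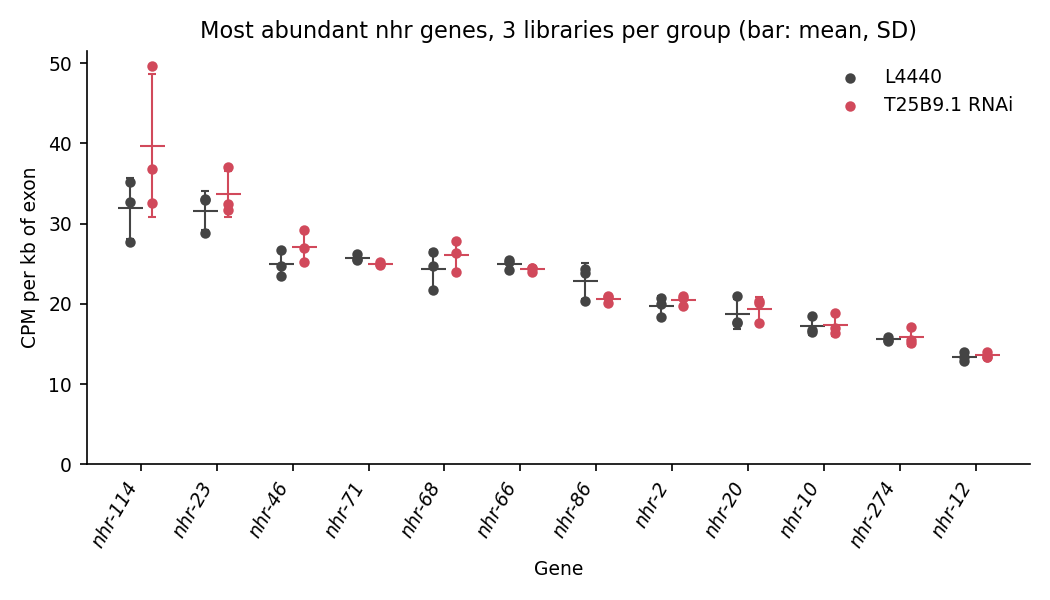
CPM per kb of exon for the 12 most abundant nhr genes, with each library as a point, L4440 in grey and T25B9.1 RNAi in red, and the mean and SD of 3 libraries as bars. Groups lie over each other for nearly all 12, and the widest spread is that of nhr-114 with RNAi, where 1 library lies far above the others.

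Knockdown of T25B9.1 was not followed by a detectable change in any nhr gene. Of the 268 genes, 173 had enough counts to be tested, and edgeR's quasi-likelihood test called 0 higher and 0 lower at an adjusted p under 0.05, where it called 0 of 13374 genes in all (0.0%). The lowest adjusted p of an nhr gene was 0.717. DESeq2 called 0 nhr genes against 14 genes in all (0.104%), limma-voom called 0 against 0 (0.0%), and edgeR without a count filter called 0 of 254 nhr genes against 139 genes in all (0.613%). Without T25B9.1 RNAi replicate 1 edgeR called 0 of 175 nhr genes against 1 gene in all (0.00737%). At an unadjusted p under 0.05 edgeR found 4 nhr genes higher (2.31%, against 4.01% of all genes) and 0 lower (0.0%, against 2.17%). The 4 were nhr-74, nhr-116, nhr-168 and nhr-202. Without T25B9.1 RNAi replicate 1 nhr-18 took the place of nhr-116 among 4 higher (2.29%, against 1.57%), and nhr-110 was the 1 lower (0.571%, against 0.737%). In a fit with each L4440 library blocked with the RNAi library of the next number, a pairing that the labels do not state, the 4 were joined by nhr-114 and nhr-91, making 6 higher (3.47%, against 6.89%) and 0 lower (0.0%, against 4.01%). Among the 173 tested genes, 1 was over the CPM cutoff of the count filter in all 3 L4440 libraries but not in all 3 RNAi libraries. For 3 genes it was the reverse.

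Large differences were few in either direction. A fitted change of at least 1.5-fold was seen upward for 2 of 173 nhr genes (1.16%, against 5.08% of all genes tested) and downward for 1 (0.578%, against 0.471%). The 2 were nhr-74 and nhr-116, and the 1 was nhr-178. For nhr-178 the log2 fold change went from -0.64 to -0.25 without L4440 replicate 2, the library with its highest value, and for nhr-116 it went from 0.64 to 0.38 without T25B9.1 RNAi replicate 1. The SE of a log2 fold change had a median of 0.101 for the 36 genes of 10 CPM or more, 0.194 for the 108 genes of 1 to 10 CPM and 0.325 for the 29 genes under 1 CPM. Small changes of the lower genes were therefore not detectable at this depth and with 3 libraries per group. The same fit did not call T25B9.1 itself, which was 3.57-fold lower with RNAi (edgeR adjusted p = 0.0525). A sizeable change could thus also go uncalled in this fit.

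More nhr genes lay above 0 than below it, by small amounts. The log2 fold change was above 0 for 117 of 173 genes (67.6%, against 50.6% of all genes tested), and below 0 for 56 (32.4%, against 49.4%), with a median of 0.07 against 0.00. The share above 0 differed by level. Over all tested genes of 1 to 10 CPM 64.9% lay above 0, close to the 67.6% of the 108 nhr genes in that range. At 10 CPM or more the shares were 36.3% of all tested genes and 69.4% of 36 nhr genes. The library that stood apart moved with the shift: 62 nhr genes (35.8%, against 28.2% of all genes) had their highest value in T25B9.1 RNAi replicate 1, and 21 (12.1%, against 26.9%) their lowest. The moulting and pharynx sums given above were also highest there. So were those of the 3 body wall muscle markers (1013 CPM, against 449 to 695 CPM) and the 3 intestine markers (81.4 CPM, against 62.3 to 69.4 CPM). Of the intestine markers ifb-2 (50.3 CPM) and elt-2 (11.3 CPM) were highest there, but ges-1 was not (19.7 CPM, against 19.4 to 24.7 CPM). The neuron markers were lowest there in sum (177 CPM, against 179 to 209 CPM), as were the oocyte and germline markers and col-19. Single genes of these lists differed. Of the neuron markers snb-1 (150 CPM) and unc-119 were lowest there, but unc-31 (5.08 CPM) and rab-3 (6.09 CPM) were highest there. Of the oocyte and germline markers puf-5 (981 CPM) was lowest there and glp-1 (335 CPM) highest, with rme-2 and oma-1 in between. The part of these genes in the shift was not tested. Without that library 106 of 175 nhr genes (60.6%, against 48%) lay above 0, and the median was 0.037. The summed level of all 268 was 1346, 1348 and 1371 CPM with L4440 and 1485, 1364 and 1383 CPM with RNAi, where replicates 1 and 3 lay above all controls and replicate 2 did not, though each lay above the L4440 library of the preceding number.

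**Figure D4:**
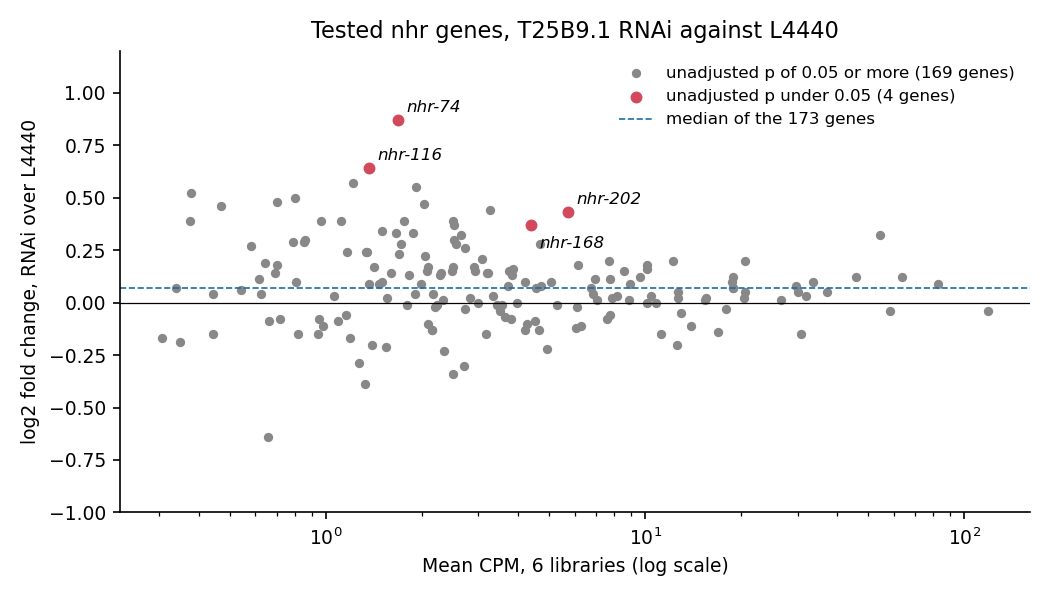
log2 fold change of each tested nhr gene (RNAi over L4440) against its mean CPM (log axis), 1 point per gene, with the 4 genes of unadjusted p under 0.05 in red. The dashed line is the median of the 173 genes, 0.07, and the points narrow around it toward higher levels.

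The nhr gene with the smallest p was nhr-74 (WBGene00003664, chrI:11429014-11432156, plus strand). It stood at 1.3, 0.972 and 1.28 CPM with L4440 and at 2.78, 2.13 and 1.64 CPM with RNAi. All 3 RNAi libraries lay above the controls, replicate 1 the furthest. The log2 fold change was 0.87 (SE 0.252), with an unadjusted p of 0.00725 and an edgeR adjusted p = 0.717, and it was 0.66 without T25B9.1 RNAi replicate 1. It is the first of a run of 3 nhr genes, of which it was the only one tested, and the third, nhr-259, had 0 counts.

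Next came nhr-202 (WBGene00019742, chrV:462588-464963, plus strand), at 4.98, 4.83 and 4.8 CPM with L4440 and 7.29, 6.67 and 5.73 CPM with RNAi. The controls were nearly level and all RNAi libraries lay above them. Its log2 fold change was 0.43 (SE 0.146, edgeR adjusted p = 0.717). It shares 36 exonic bases with nhr-201, the next gene of its run of 5, and the 2 can share reads to that extent. The other 4 genes of the run were also above 0, with log2 fold changes of 0.33 for nhr-201, 0.07 for nhr-203, 0.29 for nhr-123 and 0.14 for nhr-98, each with an unadjusted p over 0.05.

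The gene nhr-168 (WBGene00008221, chrV:13331114-13333871, minus strand) was at 4.15, 3.53 and 3.8 CPM with L4440 and 4.96, 4.79 and 5.06 CPM with RNAi. Here the 3 RNAi libraries were level with each other and above the controls, and the log2 fold change of 0.37 (SE 0.145) was 0.36 without T25B9.1 RNAi replicate 1. For nhr-116 (WBGene00003706, chrV:16912234-16915350, plus strand) the values were 1.05, 1.17 and 0.967 CPM with L4440 and 2.22, 1.19 and 1.57 CPM with RNAi. Replicate 2 of the RNAi group barely cleared the highest control, and the log2 fold change was 0.64 (SE 0.265). The next 2 by p were nhr-18, at 2.19 ± 0.0937 and 2.83 ± 0.177 CPM (SD, n = 3), and nhr-115, at 1.69 ± 0.241 and 2.37 ± 0.514 CPM.

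In the other direction the 6 genes of smallest p were nhr-178, nhr-110, nhr-173, nhr-184, nhr-86 and nhr-35, with unadjusted p of 0.0962 to 0.149. The gene nhr-178 was at 0.505, 1.17 and 0.725 CPM with L4440 and 0.451, 0.559 and 0.53 CPM with RNAi. Its groups overlapped, since L4440 replicate 1 lay below 2 of the RNAi libraries. Of the 6, nhr-86 was the most abundant, at 33.7, 28.7 and 34.5 CPM with L4440 and 29.4, 28.5 and 29.7 CPM with RNAi. The RNAi libraries were level and close to L4440 replicate 2, and the log2 fold change was -0.15 (SE 0.0882).

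The 3 RNAi libraries lay wholly above the 3 controls for 14 of the 173 nhr genes (8.09%, against 5.53% of all genes tested) and wholly below for 2 (1.16%, against 5.32%). The 14 were nhr-6, nhr-18, nhr-22, nhr-44, nhr-50, nhr-74, nhr-91, nhr-100, nhr-109, nhr-116, nhr-128, nhr-135, nhr-168 and nhr-202, and the 2 were nhr-71 and nhr-173. Separation did not require size: nhr-22 was at 20.2 ± 0.438 CPM in the L4440 group and 21.0 ± 0.0597 CPM in the RNAi group, and nhr-71 at 59.3 ± 0.874 and 57.6 ± 0.384 CPM (SD, n = 3).

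**Figure D5:**
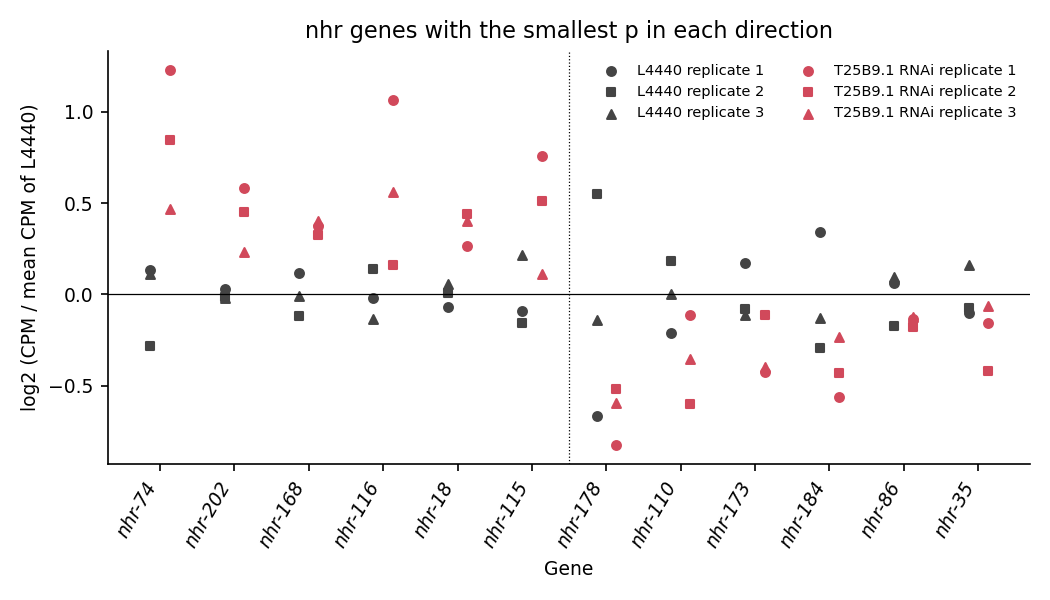
log2 of CPM over the L4440 mean, by library, for the 6 nhr genes of smallest p in each direction (left of the dotted line higher, right lower), with symbols for replicates. Groups are apart for nhr-74, nhr-202, nhr-168, nhr-116 and nhr-18 on the left, and of the 6 on the right for nhr-173.

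Receptors of development were listed as 11 genes, all tested, with 9 expressed. The list had 10 log2 fold changes above 0 and 1 below, a median of 0.12 and 0 genes with an unadjusted p under 0.05, and the median was 0.04 without T25B9.1 RNAi replicate 1. The moulting regulator nhr-23 was at 73.0, 83.7 and 83.1 CPM with L4440 and 93.5, 80 and 81.9 CPM with RNAi. Replicate 1 of the RNAi group was the highest of the 6 libraries and the other 5 overlapped, with a log2 fold change of 0.09 (SE 0.0846) that became 0.01 without it. The gene nhr-25, the counterpart of the fly receptor Ftz-F1 and also needed for moulting, was at 10.7, 10.4 and 7.08 CPM with L4440 and 13.6, 10.6 and 7.88 CPM with RNAi.

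The same library was highest for nhr-23 and nhr-25 and for the moulting genes in sum, and the part of the moulting genes in these values was not tested. The 7 moulting genes were all above 0 (median 0.53, 3 with an unadjusted p under 0.05), and their median was 0.14 without T25B9.1 RNAi replicate 1. Among them mlt-11, for a protease inhibitor, was at 39.4, 38.5 and 26.1 CPM with L4440 and 122, 46.7 and 47.5 CPM with RNAi, a far wider spread than that of nhr-23.

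Other developmental receptors were scarcer. The gene nhr-6, a counterpart of the NR4A receptors that acts in the spermatheca, was at 2.2, 2.4 and 2.45 CPM with L4440 and 3.08, 2.73 and 3.01 CPM with RNAi. Groups did not overlap, and the log2 fold change was 0.32 (SE 0.165) with an unadjusted p of 0.0827 in edgeR's test. The gene nhr-91, related to the vertebrate germ cell nuclear factor, was at 3.1, 2.3 and 2.87 CPM with L4440 and 4.96, 3.14 and 3.16 CPM with RNAi. Its log2 fold change of 0.44 (SE 0.229) was 0.19 without T25B9.1 RNAi replicate 1. The gene nhr-85, a counterpart of the fly receptor E75, was at 0.311 ± 0.0751 and 0.444 ± 0.0536 CPM (SD, n = 3), but 835 of its 2516 exonic bases are shared with npr-14. Its level is uncertain to that extent.

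The early embryonic receptor gene nhr-2 was at 36.3 ± 2.2 CPM in the L4440 group and 37.8 ± 1.2 CPM in the RNAi group (SD, n = 3), and nhr-40, which acts in muscle development, at 18.0 ± 0.741 and 19.5 ± 1.16 CPM. Groups overlapped for both genes, which had an unadjusted p over 0.05 in edgeR's test. The remaining 4 were nhr-31, a receptor of the excretory cell, at 18.3 ± 2.33 and 19.2 ± 2.08 CPM, nhr-41 at 3.63 ± 0.28 and 4.08 ± 0.409 CPM, nhr-67, the counterpart of the fly receptor Tailless, at 1.91 ± 0.56 and 2.05 ± 0.516 CPM, and nhr-60 at 0.853 ± 0.148 and 0.776 ± 0.145 CPM. The 1 gene of the list below 0 was nhr-60.

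Receptors of metabolism and stress were listed as 14 genes, all tested and all expressed. Of these 8 had a log2 fold change above 0 and 6 below, with a median of 0.01 (-0.04 without T25B9.1 RNAi replicate 1) and 0 genes with an unadjusted p under 0.05. The methionine cycle regulator nhr-114 was at 49.8, 42.2 and 53.6 CPM with L4440 and 75.6, 49.6 and 56 CPM with RNAi. Replicate 1 of the RNAi group lay far above the rest, replicate 2 lay among the controls, and the log2 fold change of 0.32 (SE 0.152) became 0.12 without replicate 1. Taken by library number, each RNAi library lay above the L4440 library just before it, and the unadjusted p was 0.0203 with those pairs as a block against 0.0684 without (edgeR adjusted p = 0.451 and adjusted p = 0.717). The 6 listed methionine cycle genes had a median of 0.04 (0.01 without that library) with 4 above 0. Among them sams-1 was likewise highest in T25B9.1 RNAi replicate 1, at 157 CPM against 95.8 to 101 CPM in the other 5 libraries. Also highest there were metr-1 (228 CPM, against 183 to 209 CPM) and mthf-1 (147 CPM, against 123 to 146 CPM). The genes mel-32, pmt-1 and pmt-2 were not highest there.

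The propionate receptors differed less. The gene nhr-10 was at 28.5, 25.8 and 25.4 CPM with L4440 and 29.1, 26.2 and 25.2 CPM with RNAi, and nhr-68 at 35.2, 33.0 and 28.9 CPM with L4440 and 35.1, 37.1 and 32 CPM with RNAi. Groups overlapped for both. Their targets of the propionate shunt were abundant, with acdh-1 at 692 ± 99.5 CPM in the L4440 group and 723 ± 96.6 CPM in the RNAi group (SD, n = 3), and 2 of the 5 shunt genes lay above 0 (median -0.01, and -0.09 without T25B9.1 RNAi replicate 1).

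For lipid control, nhr-80, which promotes desaturation of fatty acids, was at 6.15 ± 0.427 CPM in the L4440 group and 6.06 ± 0.5 CPM in the RNAi group. The gene nhr-13 was at 17.8 ± 0.915 and 16.1 ± 1.53 CPM (SD, n = 3). The desaturase gene fat-7 was at 59.1 ± 2.16 and 51.2 ± 8.66 CPM, and 1 of 3 desaturase genes lay above 0 (median -0.15). The lowest fat-7 value, 41.2 CPM, was that of T25B9.1 RNAi replicate 1, without which its log2 fold change went from -0.21 to -0.08 and the median of the 3 to -0.08. The gene nhr-66 was at 121 ± 3.4 and 117 ± 1.14 CPM, with a log2 fold change of -0.04 (SE 0.0582), the smallest SE of any tested nhr gene. That places its difference within a narrow range around 0. The fat regulators nhr-64 and nhr-76 were at 7.03 ± 0.572 and 12.6 ± 0.578 CPM with L4440 and at 7.05 ± 1.12 and 12.9 ± 1.32 CPM with RNAi.

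Among receptors of stress, nhr-45 was at 9.56 ± 0.765 CPM in the L4440 group and 10.7 ± 1.01 CPM in the RNAi group (SD, n = 3). The hypoxia-induced gene nhr-57 was at 4.38 ± 0.959 and 4.0 ± 0.462 CPM, nhr-62, needed for long life under dietary restriction, at 4.41 ± 0.295 and 4.12 ± 0.308 CPM, and nhr-14, which acts in iron uptake and defence, at 10.2 ± 1.3 and 10.5 ± 1.29 CPM. The gene nhr-69 was at 12.5 ± 1.34 and 12.9 ± 1.24 CPM. In the sterol and xenobiotic pair, nhr-8, which acts in cholesterol balance and resistance to toxins, was at 14.9, 20.4 and 19 CPM with L4440 and 16.1, 19.6 and 17.3 CPM with RNAi, and its relative nhr-48 was at 28.9 ± 2.54 and 30.6 ± 1.46 CPM. The RNAi values of nhr-8 all lay within the range of the controls.

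Genes that work with these receptors were also not called. Of 6 receptors with other symbols 4 were tested, 3 above 0. Of these 4 only the sterol hormone receptor gene daf-12 had an unadjusted p under 0.05 in edgeR's test. It was at 12.4, 12.3 and 13.2 CPM with L4440 and 19.6, 13.5 and 14.6 CPM with RNAi. Its log2 fold change of 0.33 (SE 0.143) was 0.15 without T25B9.1 RNAi replicate 1, with an unadjusted p of 0.171, and the median of the 4 went from 0.18 to 0.08. Of 6 genes for its ligand and for sterol transport 5 were tested, with a median of 0.20 that was 0.10 without that library. The hormone-making cytochrome gene daf-9 was at 0.831 ± 0.0748 and 0.542 ± 0.0461 CPM (SD, n = 3), with a difference of -0.62 on the log2 scale (SE 0.244), and dhs-16, which acts in the same pathway, was at 0.409 ± 0.0712 and 0.724 ± 0.188 CPM, a log2 fold change of 0.84 (SE 0.308). In edgeR's test daf-9 had an unadjusted p of 0.0318 and dhs-16 of 0.0238, and both had an adjusted p = 0.717. They rest on few counts, 14 to 28 per library for daf-9 and 10 to 39 for dhs-16. All 5 cofactor genes lay above 0 (median 0.27, and 0.14 without T25B9.1 RNAi replicate 1). Among them din-1, a corepressor partner of DAF-12, was at 107, 139 and 103 CPM with L4440 and 183, 141 and 136 CPM with RNAi. Its log2 fold change was 0.40, with an unadjusted p of 0.0209 in edgeR's test. Without T25B9.1 RNAi replicate 1 these were 0.25 and 0.116. The gene mdt-15, for a Mediator subunit that nuclear receptors recruit, was at 161 ± 19.1 and 180 ± 23.8 CPM.

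Across the 6 libraries the expressed nhr genes varied somewhat more than genes at large. The median coefficient of variation was 12.7% for the 144 nhr genes of at least 1 CPM and 9.75% for the 11040 protein-coding rows of at least 1 CPM, and the nhr genes were lower in level. The ratio of the highest to the lowest library had a median of 1.4 and was above 2 for 9 of the 144. Those 9, picked after their values were seen, were nhr-74, nhr-63, nhr-15, nhr-116, nhr-91, nhr-7, nhr-136, nhr-67 and nhr-180, and all but nhr-180 were highest in T25B9.1 RNAi replicate 1. At the other end, nhr-71 ranged only 1.05-fold and nhr-66 and nhr-22 1.06-fold.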

How the data were processed

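Libraries from RNA of whole worms were prepared using a TruSeq v2 kit, which leaves strand unmarked, per the labels' protocols. The deposited values are whole-number counts for each gene. The submitters' processing notes list bcl2fastq 1.8.4, STAR 2.4.1d, featureCounts 1.4.6-p4 and genome WBcel235; their options and the annotation release were not given in the sources used here. A second table, which the authors deposited as RPKM, was treated as a score and entered no result, because the ratio of CPM to its value varied between the libraries of a gene (median CV 21.0% over 7442 genes).

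Groups came from the labelled perturbation, and replicate numbers follow accession order. Depth was 26125982 to 40726259 counts. No library was a copy of another by a chi-square per gene, which was 18.7 to 31.2 within groups and 7.1 to 52.6 across them. The closest pairs were L4440 and RNAi replicates 2 (7.1) and 3 (10.8), each with consecutive library numbers. The remaining pair with consecutive numbers, L4440 and RNAi replicates 1, was the furthest apart of all pairs (52.6). Of 46748 identifiers 43693 matched a symbol. Exonic lengths and positions came from Ensembl release 115 of the same build; 65 of the 268 genes share exonic bases with another gene, 10 of them over 10%, and close paralogs can share reads.

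Genes passing filterByExpr (13374) got TMM factors and were fitted by the quasi-likelihood method of edgeR 4.0.16 in R 4.3.3, 2-sided, Benjamini-Hochberg over all, threshold 0.05. The biological coefficient of variation was 12.8%. The SE is the log2 fold change over the square root of F. An exact permutation test of 3 against 3 cannot go below 0.1 and was not used. Alternatives were RLE factors, library totals, DESeq2 1.42.0, limma-voom (limma 3.58.1), other filters, a block and each library left out. Named genes are the 12 most abundant per kb, the 6 of smallest p in each direction and the tested members of the role lists, with others marked. The intestine marker opt-2 was not matched. The members and lists were chosen with earlier results of these data known. Alternatives for the count above 0 and the count highest in 1 library were chosen after seeing the data.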

Additional observations from a re-analysis of the deposited data

How the results depend on the processing

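The count of nhr genes called was 0 under every alternative run, including each library left out. Over all genes the count was 1 with RLE factors (T25B9.1), 14 with DESeq2 and 139 without the filter, against 0 in the fit reported, and it ran from 0 to 1 with a library left out, the 1 being C14C6.5 without T25B9.1 RNAi replicate 1; the cause was not tested. The nhr median log2 fold change ran from 0.037 to 0.081 with a library left out and was 0.1 with library totals only, where the median of all genes was 0.028. The count of expressed nhr genes was 165 at 0.5 CPM, 112 at 2 CPM and 127 at 1 CPM per kb.

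Library numbers in the labels are 13, 17 and 21 for L4440 and 14, 18 and 22 for RNAi, without a word that consecutive numbers share anything. Deviations from the group means correlated at 0.216, 0.418 and 0.285 for consecutive numbers and at -0.382 to 0.101 for other pairs. Every library thus correlated best with its neighbour in number, a hint from the data and not from the design. The deviations within a group sum to 0 for each gene. A positive correlation in some pairs therefore forces negative ones in others, and part of the contrast is built in. With a replicate block of consecutive numbers edgeR called 0 nhr genes and 0 genes in all, the nhr median was 0.073, and 6 nhr genes in place of 4 had an unadjusted p under 0.05, with nhr-114 and nhr-91 added.

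Of 43 named nhr genes 30 kept their sign under every alternative. The other 13 had small fold changes and were not called in any setting. With a library left out their log2 fold changes ran from -0.05 to 0.068 for nhr-10, -0.0484 to 0.0639 for nhr-274, -0.0091 to 0.0477 for nhr-12, -0.0332 to 0.367 for nhr-25, -0.0274 to 0.145 for nhr-31, -0.136 to 0.264 for nhr-67, -0.155 to 0.0694 for nhr-8, -0.0286 to 0.14 for nhr-14, -0.272 to 0.0393 for nhr-57, -0.0799 to 0.112 for nhr-64, -0.0353 to 0.139 for nhr-69, -0.0666 to 0.0565 for nhr-76 and -0.074 to 0.0396 for nhr-80. The value for nhr-64 was -0.005 with DESeq2, -0.0104 without the filter and -0.0006 with the block, and that for nhr-80 was 0.009 with library totals only. For these 13 genes no direction can be given. The 30 that kept their sign were not called in any setting either. Every alternative drew on the same 6 libraries, so a kept sign does not establish a direction.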
